A study of Homo sapiens with 6 samples.

Results

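The chaperonin TRiC, also called CCT, is a barrel of stacked rings in the cytosol that takes up newly made proteins and closes over them while they fold. Each ring is built from 8 related subunits that occupy fixed places, and actin and tubulin are its best known substrates. The mRNAs of its subunit genes were followed here in HEK293T cells with and without extra PRMT1, an arginine methyltransferase responsible for most asymmetric dimethylarginine in cells. The genes were taken by name from the deposited table, after its Ensembl identifiers had been matched to current symbols. They are TCP1 (subunit 1 of the ring), CCT2, CCT3, CCT4, CCT5, CCT6A, CCT7 and CCT8, which makes 8 of the 57500 identifiers in the table, and all 8 passed the filter on low values.

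HEK293T is a human embryonic kidney line that takes up plasmids readily. The PRMT1_OV libraries (3, labelled genotype PRMT1 OV) come from cells given a pcDNA3 plasmid carrying PRMT1 with the PolyJet reagent, and the Mock libraries (3, labelled WT with vector control as treatment) are their comparison. The labels describe transfection for the PRMT1 plasmid only and do not say what the vector control was, give no time after transfection and do not say whether replicates were separate cultures. The p-values therefore rest on variation among libraries that could be technical only. In bulk RNA a change in a portion of the cells and a smaller change in all of them cannot be told apart. RNA was polyA-selected, and values are TPM, transcript levels per length scaled to 1000000 per library.

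PRMT1 itself stood at 71656, 62895 and 84923 TPM in the PRMT1_OV libraries, against 378, 397 and 368 TPM in the Mock libraries, so all libraries matched their labels. Because PRMT1 took that share, every other TPM value in the PRMT1_OV libraries was scaled down with it. Read totals worked back from the table ran from 19874247 to 23163981 in PRMT1_OV and from 18196807 to 20424790 in Mock. Of the markers of the line, the neurofilament gene NEFM stood at 305, 348 and 288 TPM in PRMT1_OV and at 492, 499 and 616 TPM in Mock, and NEFL, LIN28B and PAX2 were also detected in all libraries. Of the epithelial markers, KRT8 and KRT18 were abundant, while EPCAM and CDH1 stayed between 2.93 and 5.39 TPM and KRT19 at or near 0. Of mature kidney markers, LRP2 was at 2.06 to 4.10 TPM, AQP1 at 0.0976 to 1.499 TPM and UMOD at or near 0. PRMT1_OV library 2 and Mock library 3 stood apart from the others of their groups, as described below for the subunits.

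In TPM as deposited the subunit mRNAs as a pool were not detectably different between the groups, but CCT2 was higher and CCT3 lower in the PRMT1_OV libraries. Of the 8 subunit genes, 1 was higher and 1 was lower past the threshold (limma on log2(TPM + 1), adjusted p under 0.05 over 15341 tested genes). Across all tested genes 40.3% were called higher and 8.64% lower, 49.0% in all. Values did not overlap between the groups for 3 of the 8 subunits, against 61.4% of all tested genes. The median over the subunits was a log2 fold change of 0.11, where all tested genes had 0.30 and the 692 tested genes with a mean of at least 200 TPM had -0.20. All subunits lie above that level of abundance.

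CCT2 (ENSG00000166226, chr12:69585334-69601570 on the plus strand of GRCh38) encodes subunit 2 of the ring. Its level was 312, 377 and 296 TPM in the PRMT1_OV libraries, against 245, 242 and 214 TPM in the Mock libraries. The lowest PRMT1_OV library lay above the highest Mock library, as it did for 49.8% of all tested genes. The means were 328 ± 43.2 TPM in PRMT1_OV and 233 ± 17.1 TPM in Mock (SD, n = 3 each), a 1.41-fold difference. The log2 fold change was 0.49 (SE 0.10, 95% interval 0.24 to 0.73, limma adjusted p = 0.00676). It lost the call after median-of-ratios scaling (0.13, limma adjusted p = 0.182) and after removal of a trend with GC content (0.12, limma adjusted p = 0.149).

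CCT3 (ENSG00000163468, chr1:156308968-156367873 on the minus strand of GRCh38) encodes subunit 3. Its level was 732, 774 and 709 TPM in the PRMT1_OV libraries, against 832, 855 and 802 TPM in the Mock libraries. All PRMT1_OV libraries lay below all Mock libraries, which held for 11.6% of all tested genes. The means were 738 ± 32.9 TPM in PRMT1_OV and 830 ± 26.5 TPM in Mock (SD, n = 3 each). CCT3 fell by 0.17 on the log2 scale (SE 0.06, 95% interval -0.31 to -0.03), and its limma adjusted p = 0.0472 was just under the threshold. The call was lost when any of Mock replicates 1 and 2 and PRMT1_OV replicates 1 and 3 was left out (limma adjusted p = 0.13 to 0.151), and under quantile normalization its value was 0.04. It was also lost once PRMT1 was taken out and the other values rescaled (-0.06, limma adjusted p = 0.403). CCT3 stayed called lower after median-of-ratios scaling (-0.53, limma adjusted p = 0.00131) and after removal of the GC trend (-0.49, limma adjusted p = 0.000331).

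**Figure D1:**
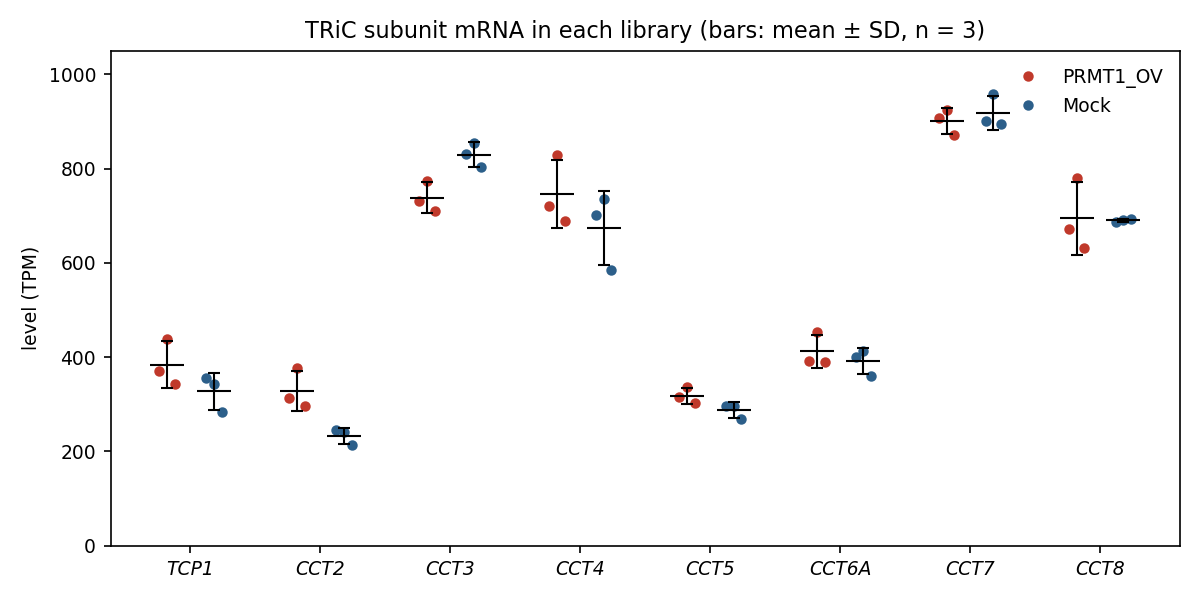
Level of each TRiC subunit mRNA in TPM (vertical axis) in the 3 PRMT1_OV libraries (red, left) and the 3 Mock libraries (blue, right), with black bars for the mean ± SD. The groups separate for CCT2 and CCT5 (PRMT1_OV higher) and for CCT3 (PRMT1_OV lower), and overlap for the other 5 subunits.

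The other 6 subunits did not pass. Their log2 fold changes ran from -0.03 for CCT7 to 0.23 for TCP1. TCP1, the founding member of the family, had 370, 439 and 342 TPM in PRMT1_OV and 357, 342 and 283 TPM in Mock (log2 fold change 0.23, 95% interval -0.05 to 0.50, limma adjusted p = 0.146). Its log2 fold change was 0.128 without PRMT1_OV replicate 2, 0.127 without Mock replicate 3 and 0.0269 without both. CCT4 had 721, 828 and 689 TPM in PRMT1_OV and 701, 735 and 585 TPM in Mock. Its log2 fold change was 0.15 with an interval of -0.09 to 0.39. In both genes the ranges overlapped, and the highest value was that of PRMT1_OV library 2 and the lowest that of Mock library 3.

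CCT5 stood at 316, 336 and 303 TPM in the PRMT1_OV libraries and at 297, 297 and 268 TPM in the Mock libraries. These ranges did not overlap, but the difference of 0.15 on the log2 scale (SE 0.07, limma adjusted p = 0.123) missed the threshold. CCT6A had 393, 453 and 390 TPM in PRMT1_OV and 401, 414 and 360 TPM in Mock, with a log2 fold change of 0.07 (interval -0.13 to 0.27).

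The most abundant subunit, CCT7, was close to even. It had 908, 924 and 871 TPM in PRMT1_OV and 901, 959 and 895 TPM in Mock, a log2 fold change of -0.03 with an interval of -0.16 to 0.11. CCT8 had 672, 781 and 631 TPM in PRMT1_OV and 686, 691 and 694 TPM in Mock, a log2 fold change of 0.00 with an interval of -0.19 to 0.20. Its Mock values lay within 8 TPM of each other, while its PRMT1_OV values spread on both sides of them.

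Added up, the 8 subunits reached 4425, 4912 and 4230 TPM in the PRMT1_OV libraries and 4418, 4534 and 4099 TPM in the Mock libraries. The means of 4523 ± 351 TPM in PRMT1_OV and 4351 ± 225 TPM in Mock (SD, n = 3 each) differed by less than the spread between replicates (exact two-sided permutation test, p = 0.5, where 0.1 is the smallest p that 3 against 3 allows). After PRMT1 had been removed and the remaining values rescaled, the sums were 4877 ± 324 TPM in PRMT1_OV and 4352 ± 225 TPM in Mock and no longer overlapped (exact permutation p = 0.1). After median-of-ratios scaling the ratio of PRMT1_OV to Mock was 0.81. The direction of the sum therefore depended on the scaling.

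Scaling moved the subunits as a group. Over all tested genes the median lay at 0.30 in TPM as deposited, 0.01 after median-of-ratios scaling, -0.03 after removal of the GC trend, 0.40 with PRMT1 taken out and -0.01 after quantile normalization. The subunit median minus that median was -0.194 in TPM as deposited and -0.252 after median-of-ratios scaling. It was -0.251 after removal of the GC trend and -0.178 with PRMT1 taken out. Only under quantile normalization was it positive, at 0.284. The direction also depended on the reference. In TPM as deposited the subunit median of 0.11 lay above the -0.20 of the 692 tested genes with a mean of at least 200 TPM. Counts of subunits past the threshold were 0 higher and 5 lower after median-of-ratios scaling, 0 higher and 6 lower after GC correction, 3 higher and 0 lower once PRMT1 was removed, and 6 higher and 0 lower under quantile normalization. Of all tested genes, 23.5% were called higher and 24.1% lower after median-of-ratios scaling, 23.1% and 26.1% after GC correction, 49.2% and 5.74% once PRMT1 was removed, and 20.3% and 19.4% under quantile normalization. CCT2 was the highest and CCT3 the lowest of the 8 in each of these settings, and the gap between their log2 fold changes was 0.547 to 0.697 over 19 alternatives, against 0.654 in TPM as deposited.

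**Figure D2:**
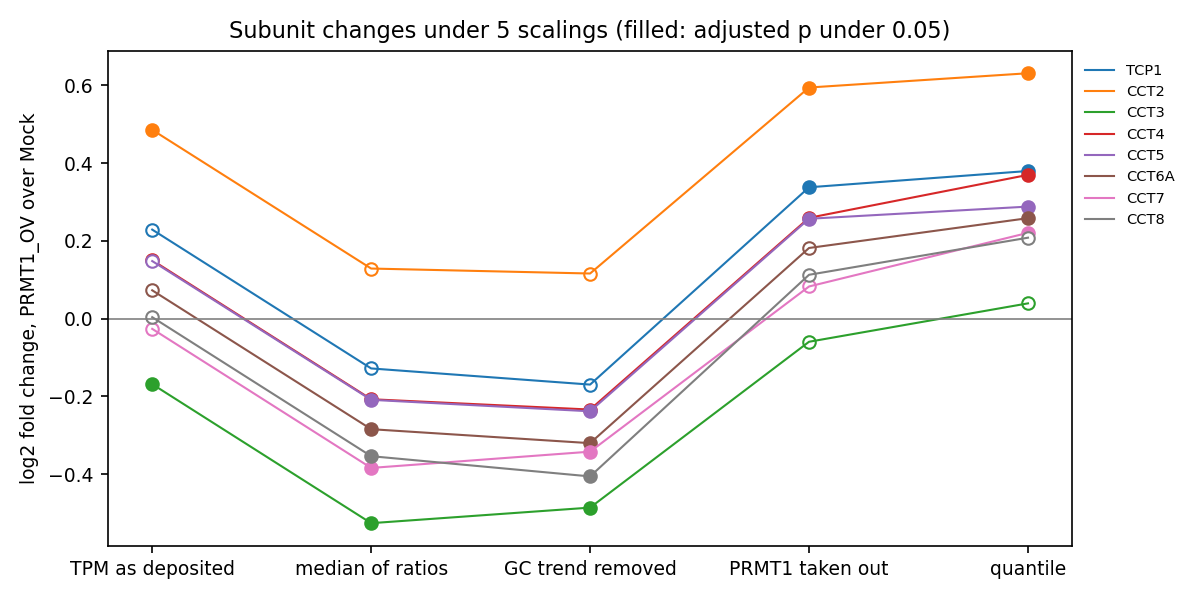
Log2 fold change of each subunit, PRMT1_OV over Mock (vertical axis), under 5 scalings (horizontal axis), with filled points past the threshold. The lines shift together while CCT2 stays on top and CCT3 at the bottom.

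The proportions among the subunits are unaffected by any single scaling factor applied to a library. CCT3 mRNA exceeded CCT2 mRNA 2.34-, 2.05- and 2.40-fold in the PRMT1_OV libraries and 3.40-, 3.54- and 3.75-fold in the Mock libraries. The ratio averaged 2.26 ± 0.19 in PRMT1_OV and 3.56 ± 0.18 in Mock (SD, n = 3 each), without overlap (exact two-sided permutation test, p = 0.1, the smallest possible here). The subunit pool was thus less uneven in the PRMT1_OV libraries, where the most abundant subunit stood 2.83-fold above the least abundant, against 3.93-fold in the Mock libraries.

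CCT2 made up 7.06, 7.68 and 6.99% of the summed subunit TPM in the PRMT1_OV libraries and 5.54, 5.33 and 5.21% in the Mock libraries. CCT3 made up 16.5, 15.8 and 16.8% in PRMT1_OV and 18.8, 18.9 and 19.6% in Mock. TCP1, CCT4 and CCT5 also had higher shares in every PRMT1_OV library than in any Mock library, while CCT6A, CCT7 and CCT8 overlapped. The separation was narrow for TCP1, with 8.09% in PRMT1_OV library 3 and 8.07% in Mock library 1. It was also narrow for CCT4, with 16.29% in PRMT1_OV library 3 and 16.20% in Mock library 2. For CCT5 the nearest values were 6.84% in PRMT1_OV library 2 and 6.71% in Mock library 1. Such shares were not computed for other sets of genes. The 5 shares without overlap had exact two-sided permutation p = 0.1, so none could pass in a design of this size. Shares are tied together: a rise of one lowers the rest.

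A fit across all genes compared each subunit with the mean of the other 7, a comparison added after the data had been seen. CCT2 rose by 0.43 relative to them on the log2 scale (95% interval 0.26 to 0.60, limma adjusted p = 0.00266), and CCT3 fell by 0.32 relative to them (interval -0.50 to -0.14, limma adjusted p = 0.0124). In the same fit genes outside the complex were measured against the mean of all 8 subunits, and the p-values were adjusted over all tested genes together. Of these, 35.2% were called higher and 12.2% lower, 47.3% in all. The call of CCT2 held in all 11 alternatives run for it (0.372 to 0.453, limma adjusted p at most 0.014). That of CCT3 held in 10 of them and reached limma adjusted p = 0.0503 without PRMT1_OV replicate 1. Both calls held after GC correction. The other alternatives for this comparison were left-out libraries, a replicate block, another pseudocount and another filter. Quantile normalization, array weights and a fit without a variance trend were not run for it. CCT3 and CCT7 have the highest transcript GC content of the 8 (51.2 and 51.3%, against 43.1 to 45.9% for the others). The other 6 subunits had differences from -0.16 for CCT7 to 0.13 for TCP1 and did not pass.

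**Figure D3:**
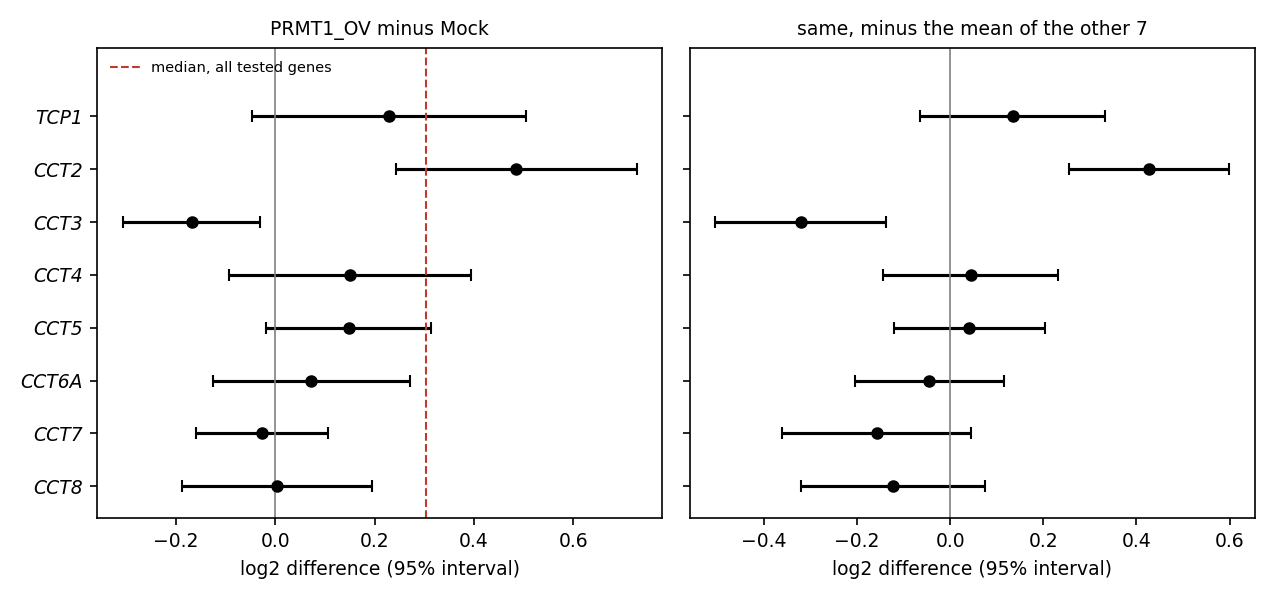
Log2 difference between PRMT1_OV and Mock for each subunit (left panel, dashed line at 0.30, the median of all tested genes) and the same after subtraction of the mean of the other 7 subunits (right panel), with 95% intervals. In the right panel the intervals of CCT2 and CCT3 lie on opposite sides of 0 and those of the other 6 include 0.

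Of the 28 ratios between 2 subunits, 16 had values that did not overlap between the groups. All 7 ratios that involve CCT2 and all 7 that involve CCT3 were among them, 1 ratio being common to both, and 3 of the 15 ratios among the other 6 subunits were too. Those 3 were TCP1 to CCT8, CCT4 to CCT7 and CCT5 to CCT7, each with the first subunit gaining on the second in PRMT1_OV (0.23, 0.18 and 0.17 on the log2 scale). Ratios share subunits and are not independent of each other. How often ratios of other gene pairs separate was not counted, while single genes did so for 61.4% of all tested genes.

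**Figure D4:**
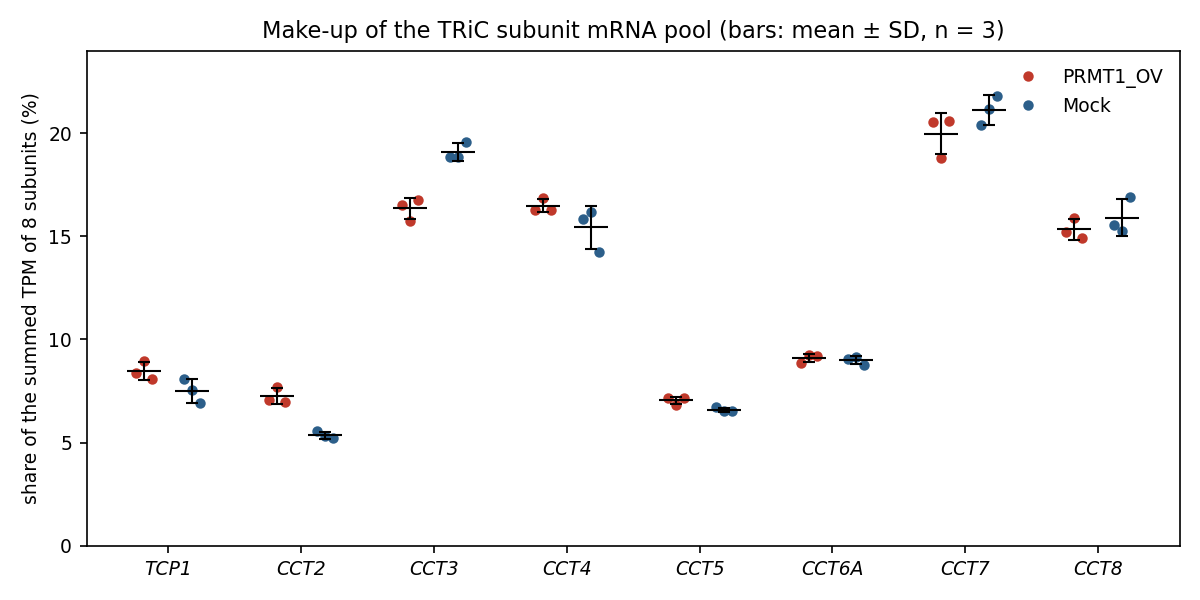
Share of each subunit in the summed TPM of the 8 subunits, in percent (vertical axis), in PRMT1_OV libraries (red, left) and Mock libraries (blue, right), with black bars for the mean ± SD. The shares of TCP1, CCT2, CCT4 and CCT5 lie higher and that of CCT3 lower in every PRMT1_OV library, narrowly for TCP1 and CCT4.

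The order of the levels was kept for CCT7, CCT6A and TCP1 and changed for the others. In both groups CCT7 was on top and CCT6A and TCP1 held places 5 and 6. In PRMT1_OV the order was CCT7, CCT4, CCT3, CCT8, CCT6A, TCP1, CCT2 and CCT5, and the values of CCT4, CCT3 and CCT8 overlapped, as did each neighbouring pair from CCT6A down. In Mock it was CCT7, CCT3, CCT8, CCT4, CCT6A, TCP1, CCT5 and CCT2, where the ranges of CCT8 and CCT4 and of TCP1 and CCT5 overlapped. CCT2 was above CCT5 in 1 of 3 PRMT1_OV libraries and in 0 of 3 Mock libraries. Levels between genes depend on the length used per gene, here 2830 bases of annotated exon for CCT4 to 5839 for CCT5. Every subunit rested on 5413 to 21395 recovered reads per library, which limits counting error.

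Within a group the subunits moved together from library to library. In PRMT1_OV library 2 all 8 subunits were above their group means, by 0.04 to 0.21 on the log2 scale, and in PRMT1_OV library 3 all 8 were below, by -0.16 to -0.05. In Mock library 3, 7 of 8 were below, with a median of -0.11, and CCT8 alone was 0.01 above. The median of all tested genes deviated in the same directions, by 0.09, -0.05 and -0.07 in these libraries, so part of this movement is shared with the whole table. Without PRMT1_OV library 2 and Mock library 3 the median log2 fold change of the subunits was -0.04, the log2 fold change of CCT2 was 0.32 (limma adjusted p = 0.00321) and that of CCT3 was -0.23 (limma adjusted p = 0.00536).

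Several subunit genes start back to back with another gene. Sequence between such starts is shown for CCT3, which was lower beside a neighbour that was higher, and for TCP1, whose neighbour did not change detectably, together with the stretch upstream of CCT2, which has no protein-coding gene starting beside it. The bases come from the RefSeq promoter table (GRCh38.p14), on the strand of the subunit gene and outside all exons annotated in GENCODE 29. Capitals mark a CCAAT box, here on the opposite strand; the motif letters given below for CCT2 and CCT3 lie elsewhere in their windows.
CCT3 (chr1:156338466-156338502, minus strand): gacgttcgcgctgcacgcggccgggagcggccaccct
TCP1 (chr6:159789750-159789811, minus strand): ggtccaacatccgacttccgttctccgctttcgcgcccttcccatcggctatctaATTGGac
CCT2 (chr12:69585209-69585333, plus strand): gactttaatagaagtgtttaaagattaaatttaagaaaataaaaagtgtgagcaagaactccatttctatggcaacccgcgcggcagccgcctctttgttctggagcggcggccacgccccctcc

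The 37 bases above CCT3 fill the gap between a cluster of CCT3 starts and the nearest TSACC start. Both genes also have annotated starts elsewhere: some CCT3 transcripts begin at the far end of the span given above, so the stretch lies inside that span, and 1 TSACC transcript begins on the CCT3 side of the gap. TSACC encodes a co-chaperone of a testis kinase. TSACC had 5.76, 10.3 and 8.65 TPM in PRMT1_OV and 3.58, 3.16 and 2.14 TPM in Mock, and rose by 1.21 on the log2 scale (SE 0.22, limma adjusted p = 0.0037), a call kept under the 4 other scalings (0.76 to 1.30). The 2 genes of this pair were thus called in opposite directions in TPM as deposited. TSACC as annotated lies inside the full span of CCT3 on the other strand, and without a stated strand setting reads of the overlap cannot be told apart.

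Of the other 5 protein-coding genes that start within 1000 bases of a subunit gene on the opposite strand, 2 rose and 3 did not pass. The share to set beside these genes and TSACC is the 40.3% of all tested genes called higher. ATPSCKMT, beside CCT5, encodes a methyltransferase of ATP synthase and had 10.8 ± 1.16 TPM in PRMT1_OV and 7.10 ± 0.81 TPM in Mock (SD, n = 3 each; log2 fold change 0.55, limma adjusted p = 0.00851). PSPH, beside CCT6A, encodes the last enzyme of serine synthesis and had 27.7 ± 0.54 TPM in PRMT1_OV and 21.3 ± 1.59 TPM in Mock (log2 fold change 0.37, limma adjusted p = 0.01). Both calls were lost under median-of-ratios scaling, GC correction and quantile normalization. MRPL18 beside TCP1, COMMD1 beside CCT4 and PRADC1 beside CCT7 had log2 fold changes of 0.12, 0.10 and 0.03. The microRNA gene MIR3913-1 starts 511 bases from CCT2 and was listed at 0 in all libraries.

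**Figure D5:**
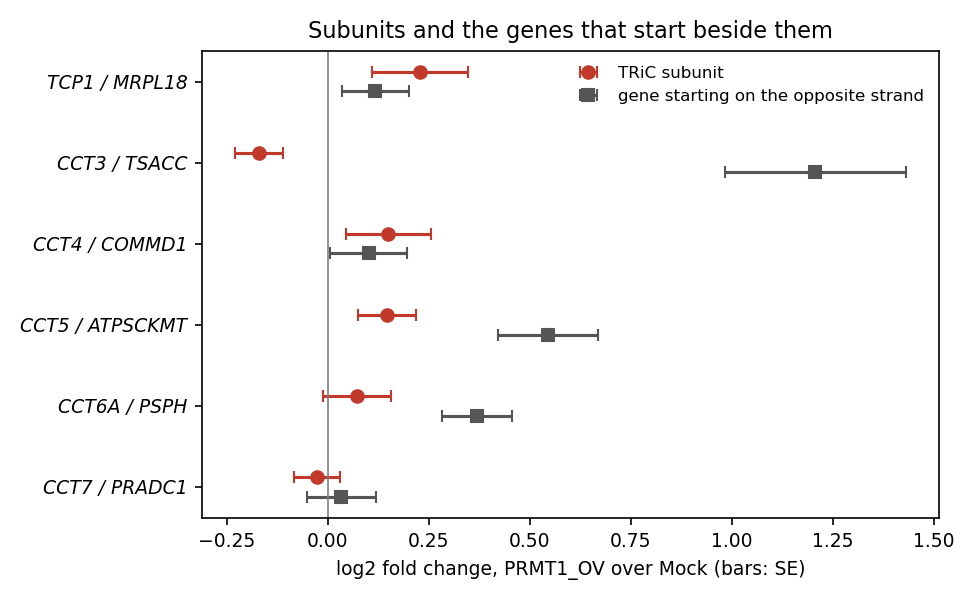
Log2 fold change, PRMT1_OV over Mock (horizontal axis, bars are SE), of 6 TRiC subunit genes (red circles) and of the protein-coding gene that starts within 1000 bases on the opposite strand (grey squares). The pair of CCT3 and TSACC lies on opposite sides of 0, at -0.17 and 1.21.

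The letters of common promoter motifs were sought on both strands in windows around annotated starts, which the RefSeq table holds for 7 of the 8 genes, all but CCT6A. The heat shock element core GAANNTTC, the letters that HSF1 sites share, was in the windows of TCP1 and CCT2, or 2 of 7 genes, and in 8.21% of 27305 genes with a window. The CCAAT box was in 4 of 7 (TCP1, CCT2, CCT3 and CCT8), against 39.7% of all genes. The GC box GGGCGG was in 5 of 7, against 48.3%, and the ETS core CCGGAAG in CCT2 only, against 12.2%. TATAAA and the E-box CACGTG were in none of the 7, against 14.0% and 8.77%. CCT2, which was higher, and CCT3, which was lower, thus share the CCAAT and GC box letters in these windows. A match is a description of the letters, not of a bound site.

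Subunit pseudogenes were mostly silent apart from copies of CCT6A. Of 14 annotated pseudogenes, 11 stayed under 1 TPM in every library, 5 of these were listed at 0 throughout, and CCT8P1 reached 1.31 TPM at most and was not tested. CCT6P1, a transcribed duplicate of CCT6A, had 19.7, 29.2 and 18.8 TPM in PRMT1_OV and 3.54, 4.90 and 4.29 TPM in Mock, and rose by 2.15 on the log2 scale (SE 0.18, limma adjusted p = 0.00018). CCT6P3, a further transcribed duplicate, had 3.82, 4.71 and 3.76 TPM in PRMT1_OV and 0.37, 0.73 and 0.09 TPM in Mock (log2 fold change 1.89, limma adjusted p = 0.000419). All Mock values of CCT6P3 are under 1 TPM, so it met the filter of 1 TPM in 3 libraries only through its PRMT1_OV values. Its call was thus favoured in advance. CCT6P1 and CCT6P3 stayed called under the 4 other scalings, which used the same filter. They rest on 709 and 301 reads over the PRMT1_OV libraries and on 128 and 28 over the Mock libraries, where CCT6A held at least 8226 reads in each library. These copies resemble CCT6A, so reads can be split between them and their levels are uncertain.

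Cofactors that hand substrates to TRiC or work with it moved in both directions, and each list is given with its calls in TPM as deposited. In that setting 40.3% of all tested genes were called higher and 8.64% lower. Prefoldin, which carries unfolded actin and tubulin to the ring, and its relatives held 2 genes that rose and 2 that fell of 9 tested (median log2 fold change 0.02). PDRG1, a prefoldin-like subunit, had 92.8 ± 5.02 TPM in PRMT1_OV and 48.2 ± 3.03 TPM in Mock (SD, n = 3 each; log2 fold change 0.93, limma adjusted p = 0.00019). PFDN1 rose by 0.30 (limma adjusted p = 0.0143), while PFDN5 and PFDN2 fell by 0.26 and 0.25 (limma adjusted p = 0.0213 and 0.0465). PDRG1 stayed called under the 4 other scalings. PFDN1 was at -0.06 after median-of-ratios scaling and PFDN2 at 0.03 under quantile normalization, neither past the threshold. Of this list 1 gene was higher and 5 were lower after median-of-ratios scaling, and 2 were higher and 0 lower both once PRMT1 was removed and under quantile normalization.

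Of 3 tested phosducin-like cofactors, which bind the ring and modulate its cycle, 2 rose and 0 fell, with a median of 0.38. TXNDC9 had 12.1 ± 3.14 TPM in PRMT1_OV and 5.25 ± 0.34 TPM in Mock (log2 fold change 1.04, limma adjusted p = 0.00232), and PDCL rose by 0.38. The call of TXNDC9 held under the 4 other scalings and that of PDCL in 1 of them, with a value of -0.08 after GC correction. PDCL3, the remaining tested gene, had a log2 fold change of -0.17 (limma adjusted p = 0.205). It was called lower after median-of-ratios scaling (-0.52), GC correction (-0.52) and quantile normalization (-0.39), but not once PRMT1 was removed (-0.06). PDCL2, a member known from the testis, was listed at 0 in all libraries.

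Tubulin cofactors, which receive tubulin from the ring, held 2 genes that rose and 3 that fell of 6 tested (median -0.24). TBCC and TBCEL rose by 0.80 and 1.01 and TBCA fell by 0.44 (limma adjusted p = 0.0018, 0.00214 and 0.00328), and these calls held under the 4 other scalings. TBCB and ARL2 fell by 0.24 and 0.25 (limma adjusted p = 0.0208 and 0.0162), calls lost once PRMT1 was removed. TBCE was not analysed here.

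The mitochondrial chaperonin, a separate folding machine of HSPD1 rings and HSPE1 lids, had no call in TPM as deposited. HSPD1 had 1152, 1383 and 1096 TPM in PRMT1_OV and 1440, 1423 and 1349 TPM in Mock (log2 fold change -0.22, limma adjusted p = 0.0755). HSPE1 had a log2 fold change of 0.01 (limma adjusted p = 0.926). HSPD1 was called lower after median-of-ratios scaling (-0.58, limma adjusted p = 0.00125) and both were after GC correction (HSPD1 -0.61, HSPE1 -0.32, limma adjusted p = 0.000248 and 0.0468). Outside the complex, all 4 tested chaperonin-like genes rose, where 40.3% of all tested genes were called higher. These 4 genes had low levels, with Mock means of 0.74 to 12.9 TPM. CCT6B was under 1 TPM in every Mock library, and BBS12 had 1.16, 0.831 and 0.895 TPM there. Both met the filter of 1 TPM in 3 libraries through their PRMT1_OV values. A rise was thus favoured in advance for these 2 genes, and the count of 4 cannot be weighed against the 40.3%. CCT6B, a testis relative of CCT6A, had 2.68 ± 0.29 TPM in PRMT1_OV and 0.74 ± 0.16 TPM in Mock (log2 fold change 1.08, limma adjusted p = 0.00146). BBS10, BBS12 and MKKS, whose products help assemble the BBSome of the cilium, rose by 1.15, 1.22 and 0.45. MKKS lost its call in 3 of the 4 other scalings and stood at -0.03 after GC correction, and CCT8L2 was listed at 0.

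Of 15 genes for cytosolic chaperones, with the heat shock transcription factor HSF1 counted among them, 6 rose and 6 fell (median -0.09). Of all tested genes 40.3% were called higher and 8.64% lower. HSF1 had 89.6 ± 2.16 TPM in PRMT1_OV and 95.4 ± 5.41 TPM in Mock (log2 fold change -0.09, limma adjusted p = 0.333), and it was called lower after median-of-ratios scaling (-0.44, limma adjusted p = 0.00817). DNAJB1, an HSP40 cochaperone induced by heat, fell by 0.89 and HSP70 relative HSPA4 rose by 0.76 (limma adjusted p = 9.07e-05 and 0.000757), and both calls held under the 4 other scalings. HSPBP1, an exchange factor of HSP70, rose by 0.49 (limma adjusted p = 0.00133), but not after median-of-ratios scaling. Counts for this list were 1 higher and 8 lower after median-of-ratios scaling and 6 higher and 2 lower after quantile normalization, settings in which the shares of all genes called also differed, as given above.

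Of 32 tested genes whose products are known substrates of TRiC, 12 rose and 7 fell, with a median of 0.15. Of all tested genes 40.3% were called higher and 8.64% lower. Both cytosolic actins fell: ACTG1 had 4600 ± 197 TPM in PRMT1_OV and 7553 ± 352 TPM in Mock (SD, n = 3 each; log2 fold change -0.72, limma adjusted p = 0.000165), and ACTB fell by 0.51 (limma adjusted p = 0.000725). TUBB6, a beta-tubulin, rose by 0.77 (limma adjusted p = 0.000415), and WRAP53, a telomerase cofactor gene whose reads are uncertain without a stated strand setting, rose by 0.72 (limma adjusted p = 0.000586). These 4 calls held under the 4 other scalings. Actin and tubulin genes have close copies, so reads can be split among them. After median-of-ratios scaling 6 of the list were higher and 13 lower, where all tested genes had gone to 23.5% higher and 24.1% lower.

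Among 12156 tested protein-coding genes outside the complex, the 5 with centred log2 profiles nearest to the mean profile of the 8 subunits over the 6 libraries were SAMM50, MTHFD1, GOT2, AMZ2 and MTIF2. Their root mean square distances were 0.0116 to 0.0264 on the log2 scale. Among the subunits, CCT6A (0.0279) and CCT5 (0.0329) lay nearest to that mean and CCT2 (0.191) and CCT3 (0.147) farthest. This is a description of 6 libraries in 2 groups and carries no test.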

How the data were processed

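The deposited values are TPM made by the authors. Without role or order, the submitters' processing notes list STAR 2.5.2b, Subread 1.5.2, featureCounts, Trimmomatic 0.36 and the build GRCh38. Annotation, strand setting and TPM calculation: not given in the sources used here. Columns were matched to samples by title. Multiplied by exonic length in GENCODE 29, values under 50 reads were whole within 0.05 of a read in 95.52 to 95.85% of cases, which gave the read totals; intervals from counts would cover counting error only. Libraries of a group differed by more than counting noise (chi-square per degree of freedom 2.7 to 23.2).

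Genes reaching 1 TPM in 3 or more libraries were tested with limma 3.58.1 (R 4.3.3, lmFit, eBayes with trend) on log2(TPM + 1), which understates changes of low genes, with Benjamini-Hochberg adjustment and a threshold of 0.05. Single values were compared by exact permutation. GC correction removed a loess trend per library, with a GC value for 99.6% of tested genes. The subunits, lists and tests were chosen with earlier results of these data known. Named genes are the subunits, their pseudogenes, overlapping or adjacent genes, the 5 nearest profiles, PRMT1 and the listed cofactors and substrates, of each list at least the called genes with the 3 smallest p. Alternatives were other pseudocounts, filters, scalings and variance models, a block and left-out libraries.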

Additional observations from a re-analysis of the deposited data

How the results depend on the processing

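Against 1 subunit higher and 1 lower in TPM as deposited, 0 were higher and 5 lower after median-of-ratios scaling (subunit median -0.247; TCP1 -0.128, CCT4 -0.208, CCT5 -0.209, CCT6A -0.285, CCT8 -0.354; ratio of sums 0.81), and 0 higher and 6 lower after GC correction (median -0.28; TCP1 -0.17, CCT4 -0.234, CCT5 -0.239, CCT6A -0.321, CCT8 -0.406). Quantile normalization gave 6 higher and 0 lower (median 0.273, or 0.284 minus all genes, CCT3 0.039, CCT7 0.22), and removal of PRMT1 gave 3 higher and 0 lower (median 0.219, CCT7 0.0825). Array weights gave 2 higher (CCT6A -0.0221, CCT8 -0.0342), and removal of mitochondrially encoded genes put CCT8 at -0.0213. The median minus that of all genes was -0.0748 with a pseudocount of 5 TPM and -0.0202 with no filter. With no filter or no variance trend 0 subunits were lower. Replicate numbers did not pair the libraries (correlations of same-numbered deviations -0.033, 0.059 and 0.02); with the replicate block 0 were lower (CCT3 limma adjusted p = 0.0608) and 1 was higher. Leaving out libraries, the count lower ranged over 0 to 1, the median over -0.0414 to 0.147, the ratio of sums over 0.967 to 1.07, CCT4 over -0.0254 to 0.216, CCT6A over -0.0574 to 0.114, CCT7 over -0.0632 to 0.0053, CCT8 over -0.0835 to 0.07, the CCT6A share difference over -0.0526 to 0.234 points and the difference of CCT4 from the other 7 over -0.0222 to 0.0839. The cause of these shifts was not tested. The lowest values of the median, of the ratio of sums and of CCT4, CCT6A and CCT7 came without both PRMT1_OV replicate 2 and Mock replicate 3.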

Other observations

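Biochemical work on yeast and bovine TRiC divides the ring into a side that binds ATP more strongly (TCP1, CCT2, CCT4 and CCT5) and a side that binds it more weakly (CCT3, CCT6A, CCT7 and CCT8). This grouping was applied after the values had been seen and carries no test. In TPM as deposited the log2 fold changes ran from 0.15 to 0.49 on the first side and from -0.17 to 0.07 on the second, without overlap. The values nearest each other across the sides were those of CCT5 (0.15, SE 0.07) and CCT6A (0.07, SE 0.09). Neither passed the threshold, and their gap was small beside these errors. The first side made up 38.9, 40.3 and 38.5% of the summed subunit TPM in the PRMT1_OV libraries and 36.2, 35.6 and 32.9% in the Mock libraries. Transcript GC content was 43.8 to 45.9% on the first side and 43.1 to 51.3% on the second, and its part in the pattern was not tested.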
